A study of Oryza sativa Japonica Group with 9 samples.

Results

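The genes described here are the 8 nuclear genes for subunits of photosystem I, the PSA genes, in the shoot apex of rice (Oryza sativa). They were chosen by name, with earlier results of these data known. PSAD, PSAE, PSAF, PSAG, PSAH, PSAK, PSAL and PSAN each had an entry among the 57567 loci of the expression tables, and all 8 passed the filter on low values that left 21480 loci for testing. The RNA came from the apical 2 to 3 mm of shoots of 5-day-old seedlings of the cultivar Hwayoung. There were 2 libraries of wox11 mutant seedlings, 2 libraries labelled as jmj705 mutant and 2 libraries of wild-type seedlings, and the design text calls the libraries of a genotype biological repeats. The sources used here do not give the mutant alleles or how many seedlings entered a library. WOX11 encodes a WUSCHEL-related homeobox transcription factor, and JMJ705 encodes a demethylase of lysine 27 on histone H3. Chromatin immunoprecipitation with an anti-FLAG antibody mapped JMJ705 in seedlings that over-express it, with 1 peak list from a wox11 background and 1 from a wild-type background.

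Photosystem I is the chloroplast membrane complex that uses light to move electrons from plastocyanin, in the thylakoid lumen, to ferredoxin, in the stroma. Its reaction-centre core is encoded in the chloroplast genome, and the PSA genes in the nucleus encode smaller subunits that are imported. PSAD and PSAE sit on the stromal face, PSAF, PSAG, PSAH, PSAK and PSAL lie in the membrane, and PSAN lies in the lumen. In a shoot apex, the cells that form green plastids are those of the young leaves around the meristem.

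Expression is given as FPKM, which is the number of fragments scaled by transcript length and by library size. Read totals are therefore unknown. FPKM of all named loci summed to 700090 to 820527 per library, and Pearson correlations between libraries over these loci were 0.993 to 0.995 within a genotype and 0.988 to 0.994 between genotypes. The targeted genes were checked first. WOX11 had 1.49 and 1.11 FPKM in wox11 and 4.52 and 5.00 FPKM in wild type, a log2 change of -1.33 that did not pass (adjusted p = 0.0575, with a range of 0.0388 to 0.542 over the alternatives). JMJ705 had 13.7 and 12.5 FPKM in the libraries labelled jmj705 and 7.41 and 6.73 FPKM in wild type, so its transcript was higher in the libraries labelled as its mutant (log2 change 0.81, adjusted p = 0.0634). The tables do not show which part of either transcript a mutation changes.

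Each library also carried the markers of the tissue. The 3 meristem markers OSH1, OSH15 and OSH71 summed to 103 to 113 FPKM in wox11, 126 to 175 FPKM in the libraries labelled jmj705 and 141 to 159 FPKM in wild type, and 5 young-leaf polarity markers (DL, YAB1, YAB3, YAB4 and YAB5) to 109 to 138, 111 to 121 and 129 to 140.4 FPKM in that order of genotypes. No meristem or polarity marker passed the limma test against wild type, and at an unadjusted p below 0.05 there were 1 meristem and 2 polarity markers lower in wox11 and 0 of either in the libraries labelled jmj705. The 5 green-leaf markers (RCA, PORB and 3 RBCS loci) summed to 207 to 230 FPKM in wox11, 167 to 168 FPKM in the libraries labelled jmj705 and 260.4 to 272 FPKM in wild type. Of these, RCA, whose span another entry shares, and the RBCS locus LOC_Os12g17600 fell for wox11, and RCA for the libraries labelled jmj705. At an unadjusted p below 0.05, 3 of 5 were lower in wox11 and 5 of 5 in the libraries labelled jmj705. Over all loci, the shares lower at that threshold were 5.84% for wox11 and 5.85% for the libraries labelled jmj705. The other 2 RBCS loci, LOC_Os12g19381 and LOC_Os12g19470, had log2 changes of 0.03 and 0.06 for wox11 and -0.64 and -1.07 for the libraries labelled jmj705. In wox11, RCA lost its call without either wox11 library or wild-type replicate 1 (adjusted p = 0.0610 to 0.104) and with no filter on low values (0.0503). LOC_Os12g17600 lost its call without any 1 of the 6 libraries (adjusted p = 0.0589 to 0.223), in a fit of 2 genotypes (0.0584), without the variance trend (0.0557) and with no filter (0.187). The RCA call in the libraries labelled jmj705 held in 1 of 15 alternatives, a filter of 5 FPKM (adjusted p = 0.0358), and was lost in the others, among them the replicate block (0.0544) and each left-out library (0.0872 to 0.264). The 2 seed-storage markers GLUA1 and GLUA2 summed to 5.19 to 5.92, 4.65 to 6.89 and 6.02 to 6.37 FPKM. No marker was at 0. LHY, a clock gene whose transcript peaks around dawn, fell to 5.31 and 4.85 FPKM in wox11 and to 54.1 and 40.9 FPKM in the libraries labelled jmj705, against 147 and 123 FPKM in wild type (adjusted p = 6.23e-05 and 0.0187). The second of these calls ended without replicate 2 of the libraries labelled jmj705 (adjusted p = 0.106) and without wild-type replicate 1 (adjusted p = 0.126), with no filter on low values (0.300) and in a fit of 2 genotypes (0.0516). The part of leaf tissue or of time of day in the values below was not tested. In bulk tissue, fewer green cells and less of a transcript per cell cannot be told apart.

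The 8 genes lie on 6 chromosomes. Coordinates are those of the tables, counted from 1, and the sources used here do not name the genome build. PSAD (LOC_Os08g44680) spans 28083293 to 28084298 on chromosome 8. PSAE (LOC_Os07g25430) spans 14533147 to 14534386, and PSAK (LOC_Os07g05480) 2546251 to 2547414, both on chromosome 7. PSAH (LOC_Os05g48630) spans 27878556 to 27879619 on chromosome 5, and PSAL (LOC_Os12g23200) 13115139 to 13117356 on chromosome 12. These 5 genes have an entry and a span of their own. PSAF (LOC_Os03g56670) is listed at 32265609 to 32274174 on chromosome 3, a span it shares with LOC_Os03g56660. PSAG (LOC_Os09g30340) is joined in 1 entry with LOC_Os09g30330, at 18463777 to 18474199 on chromosome 9, and LOC_Os09g30350 shares that span, so its FPKM may hold reads of a neighbour. PSAN (LOC_Os12g08770) is listed at 4412864 to 4638446 on chromosome 12, a span of 225583 bp shared with 22 other entries. Values of PSAF, PSAG and PSAN are uncertain to that extent.

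PSAD and PSAE form, with the core protein PsaC, the stromal ridge where ferredoxin docks. PSAD had 141 and 122 FPKM in wox11, 136 and 140.2 FPKM in the libraries labelled jmj705 and 189 and 208 FPKM in wild type. The deposited confidence bounds were 91.9 to 189 and 78.9 to 164 FPKM in wox11, 88.7 to 183 and 91.6 to 189 FPKM in the libraries labelled jmj705, and 125 to 253 and 137 to 279 FPKM in wild type. All 4 mutant libraries lay below both wild-type libraries, and the bounds of every mutant library overlapped those of every wild-type library. PSAE had 92.7 and 61.6 FPKM in wox11, 95.8 and 74.9 FPKM in the libraries labelled jmj705 and 128 and 137 FPKM in wild type. Its bounds were 57.0 to 128 and 36.1 to 87.0 FPKM in wox11, 58.3 to 133 and 44.4 to 105 FPKM in the libraries labelled jmj705, and 81.0 to 174 and 85.7 to 188 FPKM in wild type. PSAE was again lowest in wox11 replicate 2 and highest in wild-type replicate 2, with no overlap of FPKM between either mutant and wild type but overlapping bounds throughout.

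PSAF provides the site on the lumenal side where plastocyanin docks. It had 52.7 and 37.1 FPKM in wox11, 56.8 and 49.0 FPKM in the libraries labelled jmj705 and 91.0 and 84.6 FPKM in wild type. Its bounds were 30.1 to 75.3 and 19.9 to 54.3 FPKM in wox11, 32.2 to 81.4 and 28.5 to 69.5 FPKM in the libraries labelled jmj705, and 55.8 to 126 and 51.8 to 117 FPKM in wild type. The mutant libraries lay below wild type without overlap, and the bounds were apart for 1 pair of libraries, wox11 replicate 2 and wild-type replicate 1.

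PSAH and PSAL lie side by side at the edge of the complex where light-harvesting complex II binds during state transitions. PSAH had 57.1 and 40.5 FPKM in wox11, 54.4 and 46.7 FPKM in the libraries labelled jmj705 and 101 and 82.4 FPKM in wild type. The bounds of PSAH were 34.3 to 79.8 and 23.2 to 57.9 FPKM in wox11, 32.1 to 76.7 and 27.1 to 66.3 FPKM in the libraries labelled jmj705, and 64.0 to 137 and 51.7 to 113 FPKM in wild type. Again wox11 replicate 2 was the lowest library, and its bounds stayed below those of wild-type replicate 1 alone. PSAL had 46.4 and 34.4 FPKM in wox11, 43.3 and 37.9 FPKM in the libraries labelled jmj705 and 64.3 and 57.8 FPKM in wild type. For PSAL the bounds were 28.7 to 64.0 and 20.7 to 48.1 FPKM in wox11, 26.7 to 59.9 and 23.1 to 52.7 FPKM in the libraries labelled jmj705, and 40.8 to 87.8 and 36.5 to 79.1 FPKM in wild type. PSAL was lower in both mutants than in wild type without overlap of FPKM, and its bounds overlapped in every pair of mutant and wild-type libraries.

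PSAG and PSAK are related membrane proteins at opposite edges of the complex, where the antenna attaches, and among the membrane subunits PSAK lay farthest below wild type and PSAG least. PSAK had 53.3 and 31.4 FPKM in wox11, 75.2 and 47.5 FPKM in the libraries labelled jmj705 and 140.1 and 113 FPKM in wild type. The bounds of PSAK were 30.4 to 76.2 and 16.1 to 46.7 FPKM in wox11, 44.6 to 106 and 26.7 to 68.3 FPKM in the libraries labelled jmj705, and 88.6 to 192 and 70.9 to 154 FPKM in wild type. They were apart in 3 of 4 pairs of wox11 with wild-type libraries and in 2 of 4 pairs of libraries labelled jmj705 with wild type, more pairs than for any other of the 8 genes. The merged entry of PSAG had 24.0 and 26.6 FPKM in wox11, 24.9 and 21.4 FPKM in the libraries labelled jmj705 and 31.6 and 29.0 FPKM in wild type. Its bounds were 10.7 to 37.4 and 12.4 to 40.8 FPKM in wox11, 10.7 to 39.0 and 8.89 to 33.9 FPKM in the libraries labelled jmj705, and 12.2 to 51.1 and 12.2 to 45.9 FPKM in wild type. PSAG was the only one of the 8 genes whose lowest library was not wox11 replicate 2, being lowest in replicate 2 of the libraries labelled jmj705.

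PSAN is a lumenal subunit that assists the reaction with plastocyanin. It had 31.2 and 16.4 FPKM in wox11, 41.5 and 28.3 FPKM in the libraries labelled jmj705 and 103 and 59.4 FPKM in wild type. The upper bounds were 92.1 and 48.4 FPKM in wox11, 96.6 and 77.3 FPKM in the libraries labelled jmj705 and 205 and 144 FPKM in wild type, while the lower bound was 0 in 5 of the 6 libraries and 0.910 FPKM in wild-type replicate 1. No pair of libraries had bounds apart for PSAN, although its FPKM in both mutants lay below wild type. Relative to the FPKM, the distance to a bound was 99.1 to 148% for PSAN, 53.3 to 61.5% for PSAG and 34.1 to 48.8% for the other 6 genes.

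**Figure D1:**
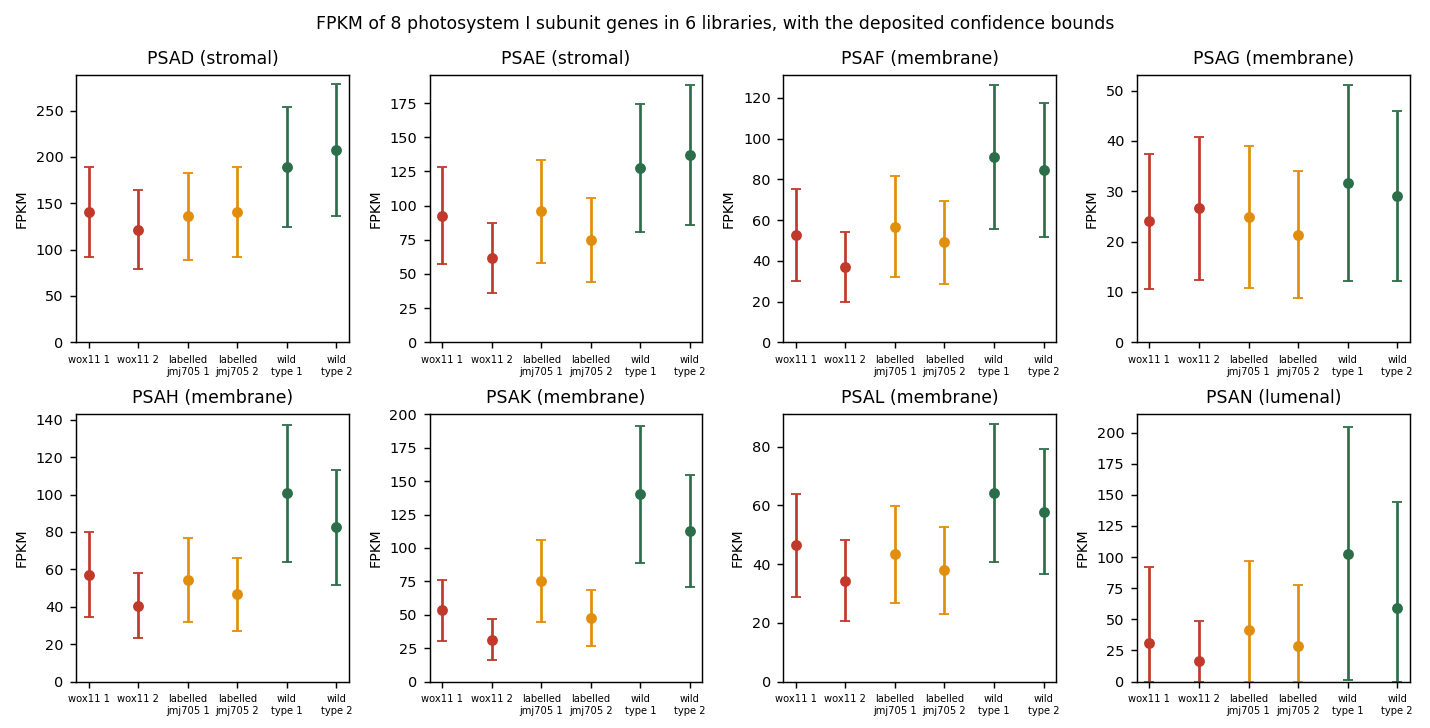
FPKM (vertical axes, each from 0) of the 8 photosystem I subunit genes in the 6 libraries (horizontal axes). Points are the deposited estimates and bars the deposited confidence bounds; the mutant points lie below both wild-type points in every panel, and the bars of PSAN reach 0 in 5 libraries.

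In wox11 apices, all 8 genes had lower FPKM than in wild type, and the sizes differed between subunits. PSAN stood at 29.3% and PSAK at 33.5% of the wild-type mean, PSAF at 51.2%, PSAH at 53.3%, PSAE at 58.3%, PSAD and PSAL at 66.1% each and PSAG at 83.4%. PSAK averaged 42.4 ± 15.5 FPKM in wox11 and 126 ± 19.5 FPKM in wild type, and PSAN 23.8 ± 10.5 FPKM in wox11 and 81.2 ± 30.7 FPKM in wild type (SD, n = 2 each). PSAD averaged 131 ± 13.3 FPKM in wox11 and 198 ± 13.3 FPKM in wild type, and PSAG 25.3 ± 1.82 FPKM in wox11 and 30.3 ± 1.83 FPKM in wild type (SD, n = 2 each).

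By limma over all loci, on log2(FPKM + 1), 0 of the 8 genes passed an adjusted p of 0.05 in wox11, where 0.838% of all loci were called and 0.382% were called lower. The log2 changes were -1.74 ± 0.36 (SE) for PSAN, -1.59 ± 0.29 for PSAK, -0.97 ± 0.18 for PSAF, -0.91 ± 0.19 for PSAH, -0.80 ± 0.21 for PSAE, -0.60 ± 0.14 for PSAD, -0.60 ± 0.17 for PSAL and -0.25 ± 0.13 for PSAG. Adjusted p was 0.0729 for PSAF and PSAK, 0.104 for PSAN and between 0.113 and 0.579 for the other 5. At an unadjusted p below 0.05, 7 of the 8 were lower, all but PSAG, against 5.84% of all loci. FPKM in both wox11 libraries was below that in both wild-type ones for 8 of 8 genes and for 22.6% of all loci. The median log2 change was -0.85 over the 8 genes and -0.016 over all loci.

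Differences between replicate 1 and replicate 2 correlated over the tested loci at 0.292 for wox11 with wild type. They correlated at 0.118 for the libraries labelled jmj705 with wild type and at 0.114 for those with wox11. The labels name no shared batch. With the replicate number as a block, 4 of the 8 genes were called lower in wox11, where 0.624% of all loci were. These were PSAN (adjusted p = 0.00542), PSAK (adjusted p = 0.00979), PSAH (adjusted p = 0.0229) and PSAF (adjusted p = 0.0303), while PSAD, PSAE, PSAG and PSAL did not pass (adjusted p = 0.0777 to 0.419). Among all alternatives the block alone gave a call for any of the 8 genes, and over them the adjusted p of those 4 ranged up to 0.745, 0.687, 0.693 and 0.599 in that order of genes. The wox11 values also depended on replicate 2, the lowest library for 7 of 8 genes: the median log2 change was -0.59 without it and -1.12 without wox11 replicate 1.

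In the libraries labelled jmj705, all 8 genes again had lower FPKM than in wild type, over a narrower range of sizes. This comparison uses the same 2 wild-type libraries as the one for wox11. PSAN stood at 43.0% and PSAK at 48.6% of the wild-type mean, PSAH at 55.2%, PSAF at 60.3%, PSAE at 64.5%, PSAL at 66.5%, PSAD at 69.6% and PSAG at 76.3%. PSAK averaged 61.3 ± 19.6 FPKM and PSAN 34.9 ± 9.28 FPKM in the libraries labelled jmj705, PSAD 138 ± 2.97 FPKM and PSAG 23.1 ± 2.44 FPKM (SD, n = 2 each), against the wild-type means above.

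In these libraries limma called 0 of the 8 genes, against 0.4% of all loci called and 0.0791% called lower. The log2 changes were -1.17 ± 0.36 (SE) for PSAN, -1.06 ± 0.29 for PSAK, -0.84 ± 0.19 for PSAH, -0.72 ± 0.18 for PSAF, -0.64 ± 0.21 for PSAE, -0.58 ± 0.17 for PSAL, -0.52 ± 0.14 for PSAD and -0.38 ± 0.13 for PSAG, with adjusted p between 0.146 and 0.304. At an unadjusted p below 0.05, 8 of 8 were lower, against 5.85% of all loci. Both libraries lay below both wild-type libraries for 8 of 8 genes and for 21.5% of all loci. The median log2 change was -0.68 over the 8 genes and -0.018 over all loci. With the replicate block, 3 of 8 were called lower, against 0.135% of all loci: PSAN (adjusted p = 0.0284), PSAK (adjusted p = 0.0457) and PSAH (adjusted p = 0.0487). Over the alternatives the adjusted p of these 3 ranged up to 0.930, 0.865 and 0.680.

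**Figure D2:**
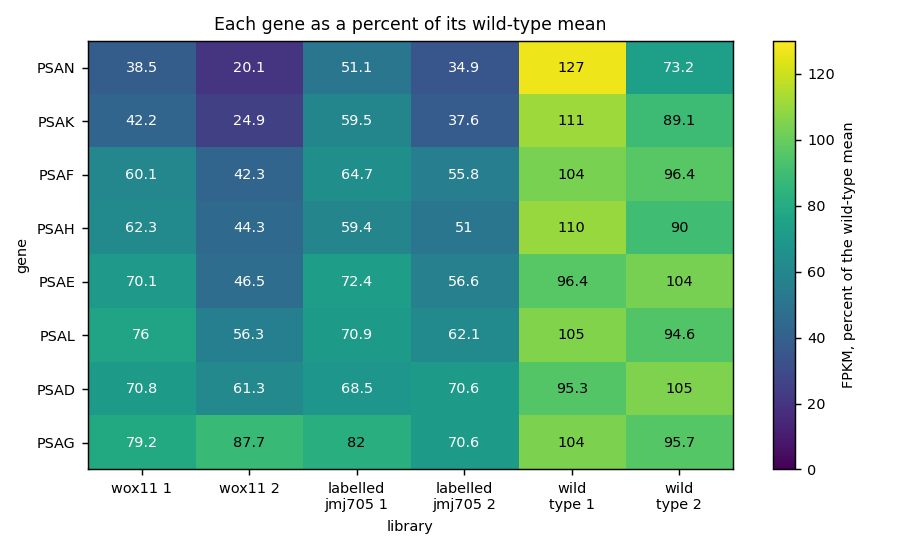
FPKM of each gene (down the page) in each library (across), as a percent of the mean of that gene in the 2 wild-type libraries; colour and printed number give the same value. PSAN is the lowest gene in each of the 4 mutant libraries, and PSAG in wox11 replicate 2 is the highest mutant value at 87.7%.

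Between the libraries labelled jmj705 and wox11, no difference of the 8 genes passed the test. PSAK had 75.2 and 47.5 FPKM in the libraries labelled jmj705 and 53.3 and 31.4 FPKM in wox11, and PSAN 41.5 and 28.3 FPKM against 31.2 and 16.4 FPKM, with overlap for both genes. Their log2 changes of 0.53 ± 0.29 and 0.58 ± 0.36 (SE) were the highest of the 8, and PSAG had the lowest at -0.13 ± 0.13. Adjusted p was 0.791 to 0.985, 0 of 8 genes passed, and 0.284% of all loci were called. At an unadjusted p below 0.05, 0 of 8 genes were lower and 0 higher, against 3.08% and 4.23% of all loci. With the replicate block, 0 of 8 were called in either direction, against 0.126% of all loci lower and 0.196% higher. The libraries labelled jmj705 lay above wox11 without overlap for 0 of 8 genes, against 18.1% of all loci, and below it for 0 of 8, against 19.0%. Of same-numbered libraries, the one labelled jmj705 was above wox11 for 5 of 8 genes in replicate 1 and for 7 of 8 in replicate 2. The median log2 change was 0.12 over the 8 genes and 0.0016 over all loci, and it was -0.040 without wox11 replicate 2. The difference between the mutants therefore had no settled sign for PSAD, PSAE, PSAH or PSAL, whose log2 changes of 0.08, 0.16, 0.07 and 0.02 turned negative without that library.

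The stromal subunits were set beside the membrane and lumenal ones, without a test. In wox11 the median log2 change was -0.70 for the 2 stromal genes and -0.94 for the 6 membrane and lumenal genes, which ran between -1.74 for PSAN and -0.25 for PSAG. In the libraries labelled jmj705 these medians were -0.58 and -0.78, and the 6 genes ran between -1.17 and -0.38. The stromal genes lay inside that range in both mutants, but its upper end was PSAG alone, whose entry is merged with a neighbour. Without PSAG, the highest of the other 5 was PSAL, at -0.598 for wox11 and -0.578 for the libraries labelled jmj705, and PSAD lay just above it at -0.596 and -0.518, while PSAE at -0.80 and -0.64 stayed below it.

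The genes were also compared as ratios of FPKM within a library. PSAD plus PSAE, divided by the sum of the other 6 genes, was 0.881 and 0.983 for wox11, 0.783 and 0.931 for the libraries labelled jmj705 and 0.597 and 0.810 in wild type. The ratio in wox11 lay above wild type without overlap, while that in the libraries labelled jmj705 overlapped wild type. The mean ratio was 0.932 ± 0.0722 in wox11, 0.857 ± 0.105 in the libraries labelled jmj705 and 0.703 ± 0.151 in wild type (SD, n = 2 each). Without PSAG and PSAN, whose entries are shared most widely, the ratio was 1.11 and 1.28 for wox11, 1.01 and 1.19 for the libraries labelled jmj705 and 0.799 and 1.02 in wild type. PSAD plus PSAE over PSAF, PSAH and PSAL was 1.49 and 1.64 for wox11, 1.50 and 1.61 for the libraries labelled jmj705 and 1.24 and 1.53 in wild type. Once PSAK was also left out, wild-type replicate 2 lay inside the range of both mutants. PSAD over PSAK alone was 2.64 and 3.87 for wox11, 1.81 and 2.95 for the libraries labelled jmj705 and 1.35 and 1.85 in wild type, again with overlap for the libraries labelled jmj705 and none for wox11. Between the stromal genes, PSAE over PSAD was 0.660 and 0.506 for wox11, 0.704 and 0.534 for the libraries labelled jmj705 and 0.675 and 0.659 in wild type, with replicate 2 below replicate 1 in each genotype. Between libraries of the same replicate number, both mutants were above wild type in both replicates for PSAD over PSAK and for each of the 3 ratios with PSAD plus PSAE on top. These ratios were not tested.

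**Figure D3:**
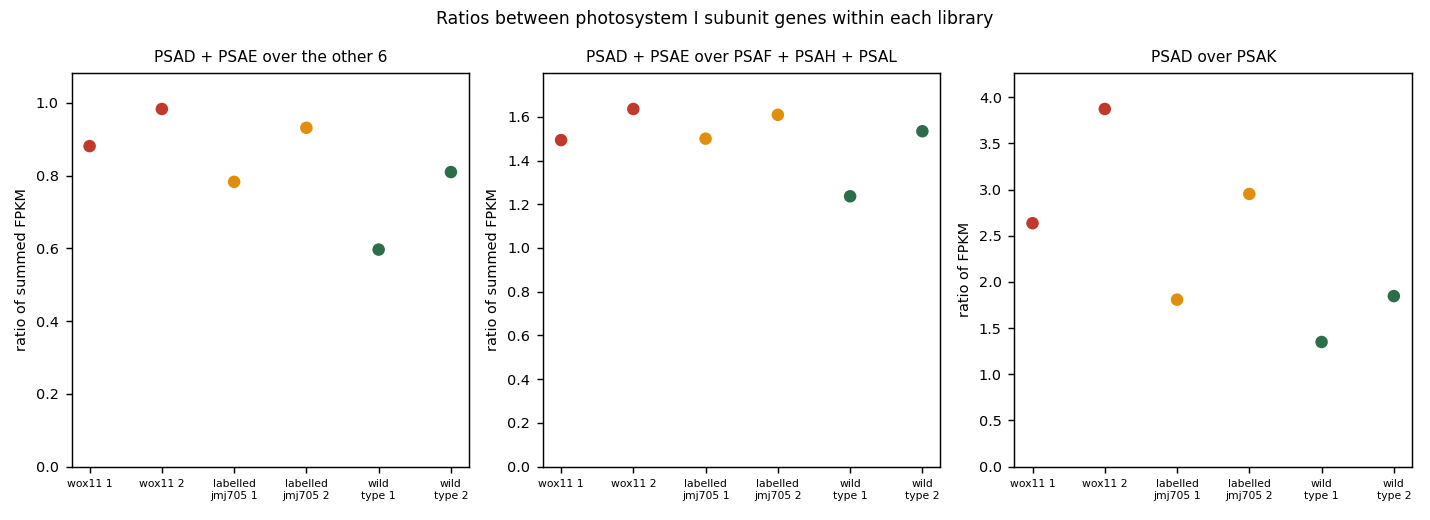
Ratios of FPKM within each library (vertical axes, from 0) for the 6 libraries (horizontal axes): PSAD plus PSAE over the other 6 genes, the same over PSAF, PSAH and PSAL, and PSAD over PSAK. The wox11 points lie above both wild-type points in the outer panels and overlap them in the middle panel.

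PSAD had the highest FPKM of the 8 genes in every library. In wox11 the order of mean FPKM was PSAD, PSAE, PSAH, PSAF, PSAK, PSAL, PSAG and PSAN, and neighbours overlapped among PSAH, PSAF, PSAK and PSAL and between PSAG and PSAN. In the libraries labelled jmj705 it was PSAD, PSAE, PSAK, PSAF, PSAH, PSAL, PSAN and PSAG, with overlap between neighbours among PSAE, PSAK, PSAF and PSAH and between PSAL and PSAN. In wild type it was PSAD, PSAE, PSAK, PSAH, PSAF, PSAN, PSAL and PSAG, with overlap between PSAE and PSAK and between neighbours among PSAH, PSAF, PSAN and PSAL. PSAK thus came after PSAH and PSAF by mean in wox11 and before both in the other genotypes. Among all 55706 named loci of their library, the 8 genes lay between the 84.8th and the 99.0th percentile. Only 21480 of those loci passed the filter on low values, so the percentiles count many loci with little or no FPKM. The lowest rank was 8489, for PSAN in wox11 replicate 2. Together they summed to 498 and 370 FPKM in wox11, 528 and 446 FPKM in the libraries labelled jmj705 and 847 and 771 FPKM in wild type. Replicate 1 exceeded replicate 2 for 7 of 8 genes in wox11, 7 of 8 in the libraries labelled jmj705 and 6 of 8 in wild type.

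Across the 6 libraries the genes varied together, as a description of libraries that share genotypes. Pearson r of log2(FPKM + 1) over the 6 libraries was 0.642 to 0.994 for the 28 pairs, with a median of 0.946, and the highest was between PSAH and PSAL. The 7 pairs with PSAG had 0.642 to 0.769, and the 21 pairs without it 0.858 to 0.994. Among 7297 tested loci with a mean of at least 20 FPKM, outside the pathway lists, 21 had an r of at least 0.95 with the mean of the 8 genes. The 5 most alike were LOC_Os01g52240 (r = 0.983), LOC_Os02g51080 (r = 0.980), LOC_Os10g36924 (r = 0.979), an entry that joins LOC_Os03g01170 to LOC_Os03g01200 (r = 0.978) and LOC_Os04g38410 (r = 0.977). LOC_Os01g52240 had 90.4 and 38.4 FPKM in wox11, 88.4 and 68.1 FPKM in the libraries labelled jmj705 and 202 and 148 FPKM in wild type, like PSAK lowest in wox11 replicate 2 and highest in wild-type replicate 1.

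Genes for proteins that work beside these subunits are given from written lists. PSAO, a further small subunit on the side of PSAH and PSAL, had 67.7 and 29.8 FPKM in wox11, 88.1 and 70.6 FPKM in the libraries labelled jmj705 and 149 and 169 FPKM in wild type. Both mutants lay below wild type without overlap. Its log2 changes of -1.80 ± 0.34 (SE) in wox11 (adjusted p = 0.0769) and -1.0 ± 0.34 (SE) in the libraries labelled jmj705 (adjusted p = 0.298) did not pass. That in wox11 passed only without wox11 replicate 1 (adjusted p = 0.0217, with a range of 0.0217 to 0.698 over the alternatives).

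Of the 6 LHCA genes, which encode the antenna of photosystem I, 1 fell and 5 did not pass in wox11, with a median log2 change of -1.04. Over all loci, 0.382% were called lower in wox11. There, 5 of the 6 LHCA genes were lower at an unadjusted p below 0.05, against 5.84% of all loci. LHCA3 had 33.1 and 19.2 FPKM in wox11 and 83.2 and 92.0 FPKM in wild type, a log2 change of -1.76 ± 0.25 (SE, adjusted p = 0.0318). This call ended without any one of wox11 replicate 2, either library labelled jmj705 or either wild-type library (adjusted p = 0.0578 to 0.129), with quantile normalization (0.0535), in a fit of 2 genotypes (0.0580) and with no filter on low values (0.515). With the replicate block LHCA2 was called as well (adjusted p = 0.0372, range over the alternatives 0.0372 to 0.729), and without wox11 replicate 1 LHCA4 (adjusted p = 0.0455, range 0.0455 to 0.761). The block called 0.624% of all loci lower in wox11. LHCA6 had the smallest difference in wox11, with 3.66 and 4.59 FPKM against 4.34 and 5.05 FPKM in wild type (log2 change -0.16). In the libraries labelled jmj705, 0 of 6 passed by limma. At an unadjusted p below 0.05, 6 of 6 were lower there, against 5.85% of all loci. Their median was -0.80, with a range of -0.99 for LHCA2 to -0.53 for LHCA6. Between the libraries labelled jmj705 and wox11, 0 of 6 passed by limma. At an unadjusted p below 0.05, 1 was lower and 1 higher, against 3.08% and 4.23% of all loci. These log2 changes ran between -0.38 for LHCA6 and 0.78 for LHCA3.

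**Figure D4:**
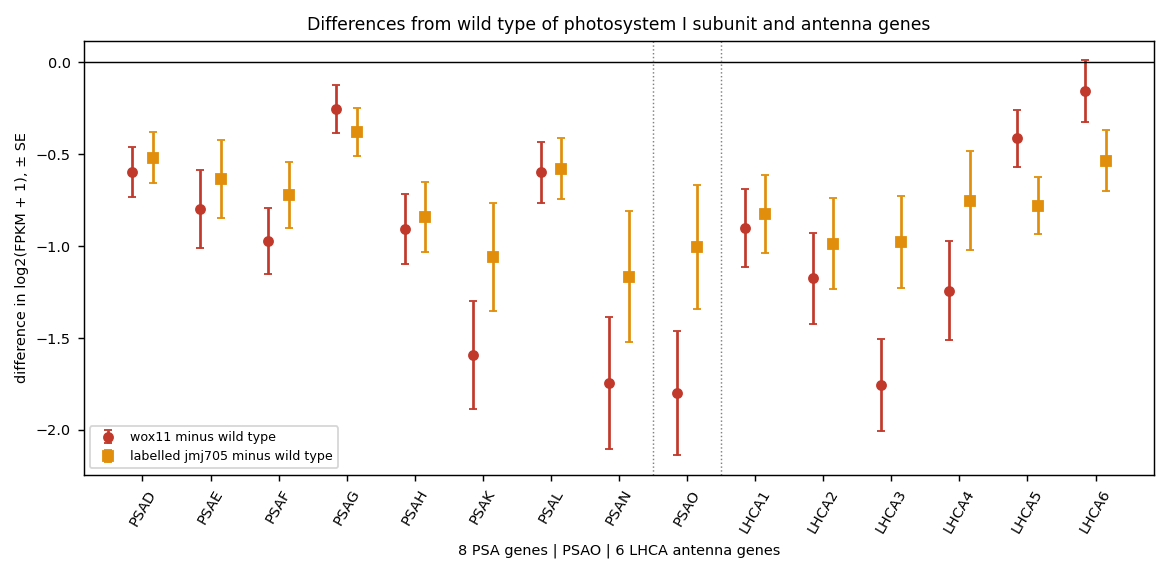
Difference in log2(FPKM + 1) from wild type (vertical axis), with bars of 1 SE from limma, for the 8 PSA genes, PSAO and the 6 LHCA genes (horizontal axis); circles are wox11 and squares the libraries labelled jmj705. The points of all 15 genes lie below 0, and LHCA3 in wox11 is the value that passed the test.

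Of 6 genes for electron carriers around photosystem I (plastocyanin, ferredoxin, 2 ferredoxin-NADP reductases, the Rieske protein and PGR5), 0 passed by limma in either mutant. At an unadjusted p below 0.05, 3 were lower and 1 higher in wox11, and 4 were lower in the libraries labelled jmj705. Among all loci, 5.84% were lower and 1009 of 21480 higher at that threshold for wox11. For the libraries labelled jmj705, 5.85% of all loci were lower. The median log2 change of the 6 genes was -0.34 for wox11 and -0.71 for the libraries labelled jmj705. PGR5, which acts in cyclic electron flow, had the lowest values of -1.33 for wox11 and -0.99 for the libraries labelled jmj705, and the highest were FNR1 at 0.57 in wox11 and PETC at -0.24 in the libraries labelled jmj705. FNR1, a reductase that takes electrons from ferredoxin, had 19.1 and 17.2 FPKM in wox11, 10.2 and 9.09 FPKM in the libraries labelled jmj705 and 12.2 and 11.7 FPKM in wild type, so wox11 was the highest genotype (adjusted p = 0.142 against wild type). FNR1 shares its span with another entry. Over all loci, the replicate block called 0.624% lower in wox11 and 0.135% lower in the libraries labelled jmj705. With the replicate block, PGR5 (adjusted p = 0.0267, range over the alternatives 0.0267 to 0.644) and the ferredoxin gene FD1 (adjusted p = 0.0130, range 0.0130 to 0.731) were called lower in wox11. The plastocyanin gene PETE was called lower with the block in the libraries labelled jmj705 (adjusted p = 0.0436, range 0.0436 to 0.871).

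Of 4 photosystem II genes, 0 passed by limma in either mutant, with 3 lower in wox11 and 4 lower in the libraries labelled jmj705 at an unadjusted p below 0.05 and with medians of -0.79 for wox11 and -0.69 for the libraries labelled jmj705. The values ran between -0.88 for PSBQ, of the oxygen-evolving complex, and -0.30 for PSBS1, of photoprotection, in wox11, and between -0.84 for PSBS1 and -0.67 for PSBO in the libraries labelled jmj705. With the replicate block, PSBO (adjusted p = 0.0217, range over the alternatives 0.0217 to 0.398), PSBP (adjusted p = 0.0362, range 0.0362 to 0.546) and PSBQ (adjusted p = 0.0406, range 0.0406 to 0.647) were called lower in wox11, against 0.624% of all loci. PSBP is listed in a span of 272093 bp with 56 entries, and PSBQ shares its span with another entry. The FPKM of both may therefore hold reads of neighbours. The transcription factors GLK1 and GLK2, which activate genes of photosynthesis, did not pass. GLK1 had 28.6 and 24.0 FPKM in wox11, 39.8 and 37.4 FPKM in the libraries labelled jmj705 and 42.7 and 44.6 FPKM in wild type, a log2 change of -0.71 in wox11 (adjusted p = 0.0632) and -0.17 in the libraries labelled jmj705. GLK2 changes were -0.10 for wox11 and -0.24 for the libraries labelled jmj705. Between the libraries labelled jmj705 and wox11, 0 of these 12 genes passed by limma. At an unadjusted p below 0.05, 3 were lower and 1 higher, against 3.08% and 4.23% of all loci. The lowest and highest log2 changes were -0.85 for FNR1 and 0.54 for GLK1.

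JMJ705 peaks were compared with the positions of the 8 genes. The list from the wox11 background held 1309 peaks and that from the wild-type background 1551, and with 1 library per background no test was possible. The lists differ in quality: a false discovery rate of at most 5% was met by 0 peaks in the wox11 background and 1532 in the wild-type background. PSAN was left out of the count, since peaks inside its 225583 bp span cannot be assigned to it. The shares of named loci given beside the count still include entries with shared or joined spans. Within 5 kb, 0 of the other 7 genes had a peak in the wox11 background, against 5.86% of named loci. In the wild-type background 1 of 7 had a peak, against 6.98% of named loci. It lay 4.56 kb beyond the merged entry of PSAG, at 18478761 to 18480216 on chromosome 9, with 47 tags, a fold enrichment of 5.36 and a false discovery rate of 1.46% in the authors' list. Within 2 kb, 0 of 7 had a peak in either background, against 4.09% in the wox11 background and 4.75% in the wild-type background. The nearest peak to PSAK was 19.8 kb away in the wox11 background and 14.4 kb away in the wild-type background, and for PSAE the distances were 25.7 kb and 8.47 kb. In the same order, they were 31.4 and 183 kb for PSAL and 177 and 60.4 kb for PSAD. For PSAF they were 391 and 174 kb, and for PSAH 502 and 107 kb. The nearest peak to PSAG in the wox11 background was 161 kb away.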

How the data were processed

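RNA-seq tables hold FPKM per locus with confidence bounds, as deposited by the authors, per the file headers. Trimmomatic, TopHat and Cufflinks are named in the submitters' processing notes, and the sources used here name neither their versions for RNA-seq nor the genome build or annotation. MACS 1.4.2 called the peaks with a p-value cutoff of 1e-05, per the file headers. For every peak the deposited lists hold the count of tags, a score (10 times the −log10 of p), the fold enrichment over control, a ratio, and the percent of false discoveries, per the file headers. An input DNA sample was not analysed here.

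Of 57567 loci, 1848 without a gene name and 13 with a failed estimate were left out, and 55706 were used. A minimum of 1 FPKM in 2 or more of the 6 libraries left 21480 loci. The test was limma 3.58.1 (R 4.3.3) on log2(FPKM + 1), fitting a mean for each genotype to all 6 libraries, with 3 degrees of freedom left for the spread, a trend of variance with the mean and Benjamini-Hochberg adjustment over all loci at 0.05. Because FPKM are not counts, no count model was used, and adding 1 FPKM understates the change of low genes. The design text calls the libraries biological repeats without saying from which plants, so p-values reflect only the spread among these samples. Differences between replicate 1 and replicate 2 correlated over 21480 loci at 0.292 for wox11 with wild type, 0.118 for the libraries labelled jmj705 with wild type and 0.114 for those with wox11. By a rule of over 0.1 in every pair the numbers were taken as pairs, although the labels name no shared batch, and the fit with the replicate number as a block is given beside the results it changes.

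The members and lists were chosen with earlier results of these data known. All 8 genes are named; per list, the lowest and highest log2 change and any gene that passed are named, with the 5 most alike loci, WOX11, JMJ705 and LHY. LHCA4, FD1, PETE and PSBP were named for a call under an alternative, after their values were seen. The files pair no symbols with loci. In the RefSeq table of assembly ASM3414082v1, 1 symbol (PSAH) lay on the same chromosome, PSAG lay on another and 6 were not found, so symbols rest on the written list. 45 of 46 listed loci were found. Gene and protein sequences were not analysed here. Other pseudocounts, filters, scalings, fits and left-out libraries were tried.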

Additional observations from a re-analysis of the deposited data

How the results depend on the processing

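Over the alternatives, the 8 genes stayed below wild type in 125 of 125 values for each mutant. This order could not turn when a library was left out, since every mutant library lay below both wild-type ones for each gene. Several other alternatives, such as the replicate block, leave the log2 change itself unaltered. Calls of the 8 genes changed only with the replicate block, which called 4 genes for wox11 and 3 for the libraries labelled jmj705. The block changed no call of the 8 genes between the mutants. Leaving out single libraries moved the median log2 change of the 8 genes between -1.12 and -0.59 in wox11, between -0.82 and -0.58 in the libraries labelled jmj705 and between -0.040 and 0.38 between the mutants. Called loci numbered 180 in wox11 (35 to 132 with a library left out), 86 in the libraries labelled jmj705 (20 to 66, 156 with no FPKM filter, 55 with quantile normalization) and 61 between the mutants (24 to 62, 185 with no FPKM filter). The cause was not tested. Between the mutants, quantile normalization gave PSAD -0.016 and PSAL -0.015, and leaving out libraries gave PSAD -0.025 to 0.18, PSAE -0.13 to 0.45, PSAH -0.18 to 0.31, PSAL -0.19 to 0.23 and GLK2 -0.41 to 0.12. Against wild type in the libraries labelled jmj705, it gave GLK2 -0.50 to 0.027 and WOX11 -0.048 to 0.57. Peaks near the 7 genes in the wild-type background numbered 1 within 5 kb and 0 within 2 kb. In the wox11 background no peak had a false discovery rate of at most 5%, so that alternative gave no value there. Leaving out entries that share coordinates or join genes was added after the data were seen. With a library left out, the lone sample is assumed to vary like the other genotypes. FPKM hide read depth, so the precision of single values rests on the deposited bounds.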
